A study of Homo sapiens with 6 samples.

Results

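The genes described here are the 5 subunits of the transcription factor NF-κB and 5 proteins that restrain or tune it, in thyroid cancer cells in which GDF15 was silenced. They are NFKB1, NFKB2, REL, RELA and RELB, the cytoplasmic inhibitors NFKBIA, NFKBIB and NFKBIE, the feedback enzyme TNFAIP3 and the nuclear cofactor BCL3. All 10 were found by their symbols among the 34738 genes of the deposited table. KHM-5M cells, a thyroid cancer line by the sample labels, made up both groups: cells with an siRNA against GDF15 (siGDF15, 3 libraries) and control cells (NC, 3 libraries). The study's methods list a negative control siRNA and name the sequenced controls as negative control cells, whereas the deposited design calls them a blank control, so an effect of GDF15 loss and an effect of siRNA transfection cannot be told apart if the control was untransfected. The study also names the line TPC-1 beside its sequencing heatmap, and which label is right was not settled here. The study calls the replicates biological, and as all came from 1 cell line, p-values measure the spread among its cultures.

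NF-κB is a family of dimers built from Rel proteins, which share a Rel homology domain that binds DNA at κB sites. In resting cells the IκB proteins hold these dimers in the cytoplasm. In the canonical arm, cytokine receptors activate the IKK kinases, IκBα is degraded, and dimers containing RelA move to the nucleus. In the non-canonical arm, receptors such as the lymphotoxin β receptor stabilise the kinase NIK, the NFKB2 precursor p100 is processed to p52, and p52 pairs with RelB. Several NF-κB genes are themselves NF-κB targets, which closes feedback loops. In senescent cells NF-κB is known as a main driver of the secreted inflammatory factors called the SASP. Processing, phosphorylation and nuclear entry are protein events, and message levels measure neither these events nor the amount of protein.

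Expected counts, which the authors worked out from read coverage, summed to between 51738814 and 68025163 per library, the lowest in siGDF15 replicate 2. With 1 read pair giving about 4 counts, this corresponds to between 12934704 and 17006291 read pairs. The targeted gene GDF15 had 22.4, 19.3 and 23.1 FPKM (fragment counts scaled by transcript length and library depth) in NC and 10.8, 10.5 and 10.7 FPKM in siGDF15. The mitochondrial share of counts was 6.39 to 6.78% in NC and 8.53 to 9.17% in siGDF15, and its part in the results was not tested. Of the thyroid follicular markers reported here, PAX8 and FOXE1 reached a mean of 1 FPKM. TG, SLC5A5, NKX2-1 and DUOX2 were at or near 0 and TSHR was not listed. All 6 epithelial markers and 6 of 7 fibroblast markers reached that level. Of the 10 leukocyte markers 7 were listed, and 0 reached that level. They summed to between 0.346 and 0.977 FPKM, with the higher sums in siGDF15. CD14 averaged 0.199 FPKM in NC and 0.671 FPKM in siGDF15. CSF1R (0.154 and 0.0859 FPKM) and ITGAM (0.07 and 0.042 FPKM) were lower in siGDF15. In bulk RNA, fewer cells of a type and less RNA per cell cannot be told apart.

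A feature that the choice of genes did not use is the sequence ahead of them. RefSeq promoter windows of GRCh38.p14 (250 bases before to 50 after a transcription start) were at hand for 8 of the 10 genes; RELB and NFKBIE had no entry. The κB consensus, searched on both strands, occurred in a window of 7 of these 8 genes, all except RELA. For comparison, 13.3% of the 27305 genes with a window held it, or 11.3% of all 35116 windows. A stricter motif, with the letters GGGA, any base and then TTTCC, was a special case of that consensus and was present in 6 of the 8 genes and in 0.678% of all genes. Genes with several starts have several windows, 3 for NFKB2 and 2 for NFKB1, RELA and NFKBIB. The stretches that carry the matches are printed because the match is what these 7 genes share outside the choice by function. They run 5′ to 3′ on the strand of the gene, with the bases inside a match in capitals, and overlapping matches of both strands are drawn as 1 stretch.
NFKB1, plus strand, chr4:102501290-102501339: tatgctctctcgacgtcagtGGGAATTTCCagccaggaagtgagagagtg
NFKB2, plus strand, chr10:102394451-102394529: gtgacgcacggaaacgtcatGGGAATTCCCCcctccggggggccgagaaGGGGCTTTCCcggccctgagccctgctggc
NFKB2, plus strand, chr10:102395664-102395704: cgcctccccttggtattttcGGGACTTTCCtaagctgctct
REL, plus strand, chr2:60881507-60881557: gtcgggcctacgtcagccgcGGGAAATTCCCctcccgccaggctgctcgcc
NFKBIA, minus strand, chr14:35404801-35404850: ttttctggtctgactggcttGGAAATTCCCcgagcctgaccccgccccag
NFKBIB, plus strand, chr19:38899921-38899968: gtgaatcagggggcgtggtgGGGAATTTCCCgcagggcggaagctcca
TNFAIP3, plus strand, chr6:137867172-137867233: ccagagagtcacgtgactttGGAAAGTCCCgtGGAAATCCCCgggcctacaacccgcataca
BCL3, plus strand, chr19:44748700-44748729: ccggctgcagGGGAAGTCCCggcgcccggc
Counted from the transcription start, the match of NFKB1 lay at -49 to -40, that of REL at -47 to -37, that of NFKBIA at -81 to -72 and the pair of TNFAIP3 between -67 and -46. In NFKB2 the stretch nearest to a start was that of the most downstream window, at -21 to -12. The match of BCL3 fell just past its start, at 2 to 11. NFKB2 and NFKBIB each held a further match, not shown. A match describes letters only and does not show that a factor bound there.

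The levels of the 10 genes spanned a wide range in both groups, as the plot of FPKM by library shows. FPKM is scaled by transcript length, so levels of different genes can be set side by side. In NC the order was NFKB2 (12.8 FPKM), RELA (12.5), BCL3 (9.94), NFKBIB (8.62), NFKBIA (7.5), RELB (7.47), NFKBIE (5.53), NFKB1 (4.0), TNFAIP3 (1.33) and REL (0.411). The ranges of NFKB2 and RELA overlapped over the NC libraries, as did those of BCL3 and NFKBIB and those of NFKBIA and RELB. In siGDF15 the order was NFKB2 (17.1 FPKM), RELA (15.1), RELB (12.7), NFKBIA (11.2), NFKBIB (9.09), BCL3 (8.02), NFKBIE (6.82), NFKB1 (3.27), TNFAIP3 (1.52) and REL (0.292), and no neighbours overlapped. RELB thus stood in sixth place in NC and in the third in siGDF15, and BCL3 went from the third place to the sixth.

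**Figure D1:**
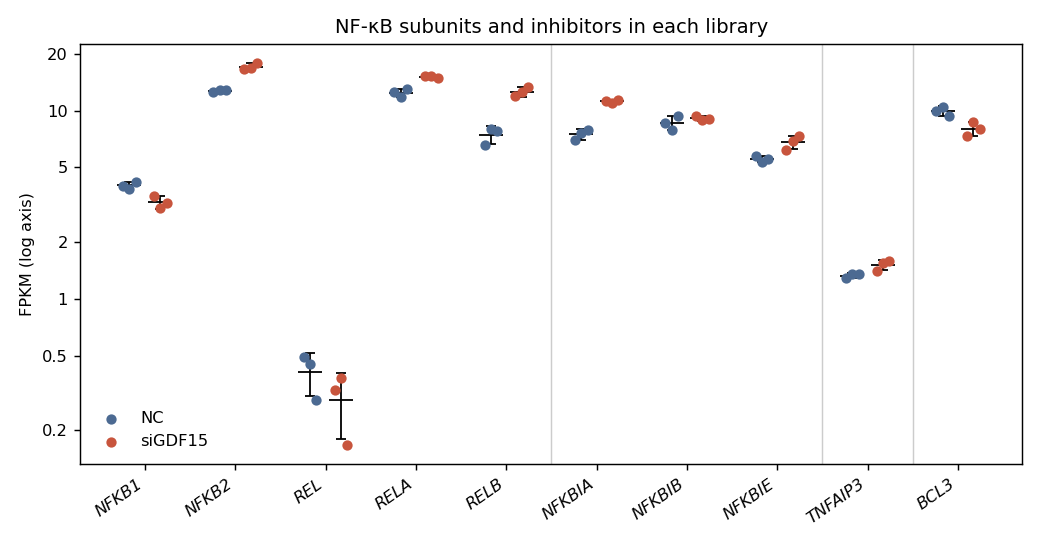
FPKM of the 10 genes in each library on a log axis, with NC in blue, siGDF15 in red, horizontal bars for group means and error bars for 1 SD (n = 3). The points of the groups separate upward for NFKB2, RELA, RELB, NFKBIA, NFKBIE and TNFAIP3 and downward for NFKB1 and BCL3, while those of NFKBIB and REL overlap.

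The quasi-likelihood test of edgeR was run over the 11867 genes with a mean of at least 1 FPKM, with Benjamini-Hochberg adjustment over all of them. Its fold changes are between counts scaled by TMM, which the FPKM values are not, so they differ from ratios of the FPKM means. Of the 10 genes 9 passed this filter, each with a mean above 1 FPKM in both groups, and REL did not. At an adjusted p-value under 0.05, 6 of the 9 were upregulated in siGDF15, 1 was downregulated and 2 did not pass. Among all tested genes 61.4% passed, with 30.0% upregulated and 31.4% downregulated, so passing the test was common in these data. None of the 9 reached a log2 fold change of 1 in either direction, which 7.81% of all tested genes did with an adjusted p under 0.05. The median log2 fold change was 0.38 over the 9 genes and 0.003 over all tested genes. The libraries of the groups did not overlap in FPKM for 8 of the 9 genes and for 68.4% of all tested genes. Overlap was judged in FPKM only. The TMM factors were 1.03 to 1.04 in NC and 0.958 to 0.972 in siGDF15, so narrow overlaps or gaps can differ on the scale of the fit. With 3 libraries against 3, the exact two-sided permutation test gives 0.1 at the smallest, and each of these 8 genes had that value.

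The genes of the non-canonical pair, NFKB2 and RELB, were both upregulated. RELB encodes the subunit that partners with p52. It had 6.56, 8.00 and 7.84 FPKM in the NC libraries and 11.9, 12.6 and 13.4 FPKM in the siGDF15 libraries. Every siGDF15 library was well above every NC library. The log2 fold change of RELB was 0.87 (SE 0.089, 95% interval 0.66 to 1.07, adjusted p = 6.1e-05 in edgeR), the largest of the 10 genes, and 4.63% of all tested genes had a higher one. NFKB2, which encodes p100 and through it p52, had 12.5, 12.9 and 12.8 FPKM in NC and 16.6, 16.9 and 17.9 FPKM in siGDF15. The NC libraries lay within a narrow band below all siGDF15 libraries. The log2 fold change of NFKB2 was 0.53 (SE 0.047, adjusted p = 2.9e-05 in edgeR), with 12.4% of tested genes higher. In GRCh38, RELB (ENSG00000104856) spans chr19:45001461-45037790 and NFKB2 (ENSG00000077150) chr10:102394110-102402524, both on the plus strand.

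The subunits of the canonical dimer moved apart. RELA (ENSG00000173039, chr11:65653599-65662972, minus strand) encodes p65, the main activating subunit. Its values were 12.6, 11.8 and 13 FPKM in NC and 15.2, 15.2 and 14.9 FPKM in siGDF15, without overlap. RELA was upregulated with a log2 fold change of 0.38 (SE 0.053, adjusted p = 0.00036 in edgeR). NFKB1 (ENSG00000109320, chr4:102501330-102617301, plus strand) encodes p105, the precursor of p50, which is the usual partner of RelA. It had 3.98, 3.85 and 4.18 FPKM in NC and 3.53, 3.03 and 3.24 FPKM in siGDF15. All siGDF15 libraries were below all NC libraries, though by a small margin. NFKB1 was downregulated with a log2 fold change of -0.19 (SE 0.065, 95% interval -0.34 to -0.04, adjusted p = 0.034 in edgeR). That call did not hold without NC replicate 1 (adjusted p = 0.080), NC replicate 3 (0.079), siGDF15 replicate 2 (0.14) or siGDF15 replicate 3 (0.12) in the same edgeR fit, nor when each library was scaled to the same median count (0.11).

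REL (ENSG00000162924, chr2:60881491-60931610, plus strand) encodes c-Rel, a subunit best known from lymphocytes, and was the lowest of the family. It was at 0.489, 0.453 and 0.290 FPKM in NC and 0.326, 0.381 and 0.168 FPKM in siGDF15, or between 218 and 631 counts. The groups overlapped. In a wider fit over 19360 genes with a mean of at least 0.1 FPKM, REL had a log2 fold change of -0.41 (95% interval -1.10 to 0.27, adjusted p = 0.31 in edgeR), an interval that holds differences of either sign. An unnamed gene on the same strand, ENSG00000267520, overlaps REL and had 0.512 FPKM in NC and 1.06 FPKM in siGDF15, and how reads in the shared part were divided is not given in the sources used here.

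Of the 3 cytoplasmic inhibitors, NFKBIA and NFKBIE were upregulated and NFKBIB did not pass the test. NFKBIA encodes IκBα, which binds RelA dimers and is resynthesised after NF-κB activation. It had 6.96, 7.63 and 7.90 FPKM in NC and 11.3, 11.0 and 11.4 FPKM in siGDF15. The siGDF15 libraries were tightly grouped and all higher. The log2 fold change of NFKBIA was 0.69 (SE 0.065, 95% interval 0.54 to 0.84, adjusted p = 3.7e-05 in edgeR), with 7.65% of tested genes higher. The gene (ENSG00000100906) spans chr14:35401079-35404749 on the minus strand. The 250 bases of its promoter window before the transcription start are shown. NFKBIA had the largest change of the 3 inhibitors, and the single κB match in that window can be seen in place.
NFKBIA, minus strand, chr14:35404750-35404999: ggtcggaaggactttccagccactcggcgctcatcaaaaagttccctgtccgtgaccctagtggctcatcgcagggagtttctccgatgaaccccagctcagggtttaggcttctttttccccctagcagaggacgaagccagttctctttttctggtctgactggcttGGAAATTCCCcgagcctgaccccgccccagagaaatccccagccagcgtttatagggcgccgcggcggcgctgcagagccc
NFKBIE (ENSG00000146232, chr6:44258166-44265788, minus strand) encodes IκBε, a slower feedback inhibitor. It had 5.75, 5.31 and 5.52 FPKM in NC and 6.21, 6.92 and 7.32 FPKM in siGDF15. The lowest siGDF15 library was only slightly above the highest NC library. The log2 fold change of NFKBIE was 0.41 (SE 0.086, adjusted p = 0.0034 in edgeR).

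NFKBIB (ENSG00000104825, chr19:38899700-38908893, plus strand) encodes IκBβ, which is degraded more slowly than IκBα. Its levels were 8.58, 7.93 and 9.36 FPKM in NC and 9.37, 8.92 and 8.99 FPKM in siGDF15. The groups overlapped in FPKM, which is not scaled by TMM as the fit below is. NFKBIB had a log2 fold change of 0.18 (95% interval 0.00 to 0.36, adjusted p = 0.073 in edgeR). Without NC replicate 3 it was 0.25 with adjusted p = 0.015 in the same fit. SIRT2, on the opposite strand, overlaps NFKBIB and had 5.20 FPKM in NC and 8.75 FPKM in siGDF15, and whether counting used the strand is not given in the sources used here.

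TNFAIP3 (ENSG00000118503, chr6:137867214-137883314, plus strand) encodes A20, an enzyme that edits ubiquitin chains on receptor complexes and so ends NF-κB signaling. Its level was low, at 1.29, 1.35 and 1.35 FPKM in NC and 1.41, 1.56 and 1.59 FPKM in siGDF15. The groups were apart by a narrow gap. TNFAIP3 was upregulated with a log2 fold change of 0.30 (SE 0.096, 95% interval 0.08 to 0.52, adjusted p = 0.026 in edgeR). The call was lost in 9 of 16 alternative fits, among them those without NC replicate 1 (adjusted p = 0.094), siGDF15 replicate 2 (0.077) or siGDF15 replicate 3 (0.091), the one with total-count scaling (0.10), and those with a lower filter of 0.1 FPKM (0.052) or no filter (0.12). On the log2(FPKM + 1) scale of limma the difference was 0.11 with adjusted p = 0.14.

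BCL3 (ENSG00000069399, chr19:44747705-44759486, plus strand) encodes an IκB relative that acts in the nucleus on p50 and p52 dimers. It had 9.99, 10.5 and 9.32 FPKM in NC and 7.35, 8.73 and 7.96 FPKM in siGDF15. All siGDF15 libraries were below all NC libraries in FPKM, which is not scaled by TMM as the fit below is. BCL3 had a log2 fold change of -0.20 (SE 0.082, 95% interval -0.39 to -0.02, adjusted p = 0.059 in edgeR), just short of the threshold. It passed in 9 of 16 alternative fits. Among them were those without NC replicate 3 (-0.25, adjusted p = 0.029) or siGDF15 replicate 2 (-0.27, adjusted p = 0.026), and the one with counts scaled by their total (-0.31, adjusted p = 0.010). BCL3 and RELB lie 241974 bases apart on chromosome 19. Of the 12 genes listed between them 6 were tested, of which 4 were upregulated and 0 downregulated in edgeR (30.0 and 31.4% of all tested genes were), with log2 fold changes from -0.34 to 1.07.

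**Figure D2:**
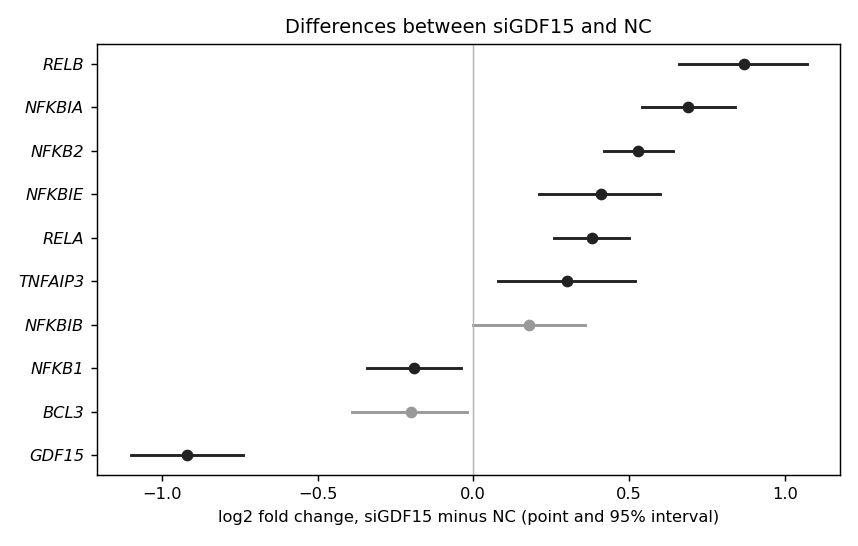
Log2 fold change of the 9 tested genes and GDF15, siGDF15 minus NC, as points with 95% intervals in edgeR, black where the adjusted p was under 0.05 and grey otherwise. RELB (0.87), NFKBIA (0.69) and NFKB2 (0.53) lie farthest to the right, NFKBIB and BCL3 are grey, and GDF15 (-0.92) lies farthest to the left.

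Ratios of genes within a library do not depend on how libraries are scaled, and they are given as descriptions without a test. NFKB2 exceeded NFKB1 by ratios of 3.14, 3.35 and 3.08 in the NC libraries and 4.70, 5.57 and 5.53 in the siGDF15 libraries. The ratio of RELB to RELA was 0.521, 0.677 and 0.603 in NC and 0.788, 0.827 and 0.898 in siGDF15. Both ratios were higher in every siGDF15 library than in any NC library. The messages of the 5 subunits had a sum of 37.1 ± 1.05 FPKM in NC libraries against 48.5 ± 1.08 FPKM in siGDF15 libraries (mean ± SD, n = 3 each). RELB made up 20.1 ± 1.80% of this sum in NC and 26.1 ± 0.954% in siGDF15 (SD, n = 3), and NFKB1 10.8 ± 0.321% and 6.75 ± 0.603% (SD, n = 3). The shares of RELA overlapped, at 31.9 to 34.9% in NC and 30.1 to 31.9% in siGDF15.

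**Figure D3:**
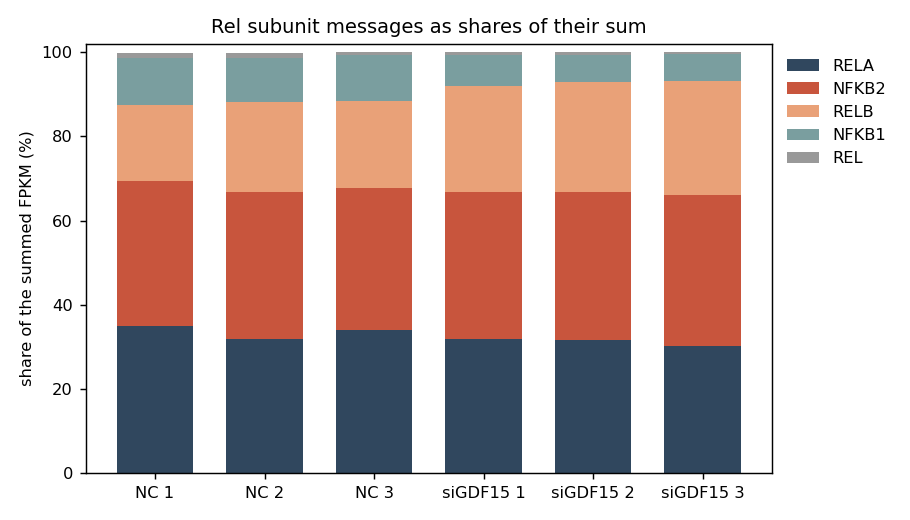
Share of each Rel subunit in the summed FPKM of the 5 subunits, in percent, with 1 stacked bar per library. NFKB2 takes 34.9 to 36.1% in siGDF15 against 33.7 to 34.8% in NC, a small difference without overlap, and the shares of RELA overlap. RELB takes 25.1 to 27.0% in siGDF15 against 18.1 to 21.6% in NC, and NFKB1 shrinks.

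The sum of the inhibitor messages NFKBIA, NFKBIB and NFKBIE was 21.7 ± 1.00 FPKM in NC libraries against 27.2 ± 0.520 FPKM in siGDF15 libraries (mean ± SD, n = 3 each). Divided by the sum of the subunits, this gave 0.589, 0.564 and 0.597 in NC and 0.565, 0.558 and 0.558 in siGDF15. These ranges overlapped, because the highest siGDF15 library lay just above the lowest NC library. Within the inhibitors the share of NFKBIA did not overlap between groups. NFKBIA supplied 34.7 ± 1.95% of the inhibitor sum in NC and 41.4 ± 0.529% in siGDF15 (SD, n = 3), and its ratio to NFKBIB was 0.811 to 0.962 in NC and 1.21 to 1.27 in siGDF15. The ratio of NFKBIA to RELA was 0.552 to 0.646 in NC and 0.722 to 0.766 in siGDF15, without overlap.

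The rest of the pathway was described with 4 hand-written lists and with the NF-kappa B signaling pathway of KEGG as the deposited annotation gives it. That annotation holds 96 listed genes, 6 of them among the 10 described here, and the counts below leave those out. In the KEGG pathway 61 of 90 other genes were tested, of which 25 were upregulated and 17 downregulated (41.0 and 27.9%, against 30.0 and 31.4% of all tested genes), with a median log2 fold change of 0.06. This balance turned with the scaling, to 17 upregulated and 22 downregulated by total count and to 19 and 21 or 18 and 21 in limma on log2 FPKM with a pseudocount of 1 or 0.1. The largest changes in the pathway by the fixed naming rule were CXCL1 and CXCL2 (both 2.25), chemokines that recruit neutrophils, PIDD1 (-1.01), an adaptor in p53 signaling, and LAT (-1.58), an adaptor known from T cell receptors.

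Upstream of the kinases, 8 of 24 tested receptors and adaptors were upregulated and 7 downregulated (33.3 and 29.2%, near the 30.0 and 31.4% of all tested genes), with a median log2 fold change of 0.09. By total count 6 were upregulated and 8 downregulated. LTBR, the lymphotoxin β receptor, averaged 22 ± 1.26 FPKM in the control and 40.9 ± 2.20 FPKM after silencing (SD, n = 3). Its log2 fold change was 1.00 (adjusted p = 5.0e-06 in edgeR). IRAK2, a kinase downstream of the IL-1 receptor, had 0.98. TNFRSF12A, the receptor of TWEAK, averaged 124 FPKM in NC and 72.7 FPKM in siGDF15, with a log2 fold change of -0.67 in the TMM-scaled fit. TIRAP, a Toll-like receptor adaptor, also had -0.67 and entered the test through its NC level (1.54 FPKM in NC, 0.892 FPKM in siGDF15). Unlike LTBR, the receptors CD40 (-0.33, adjusted p = 0.0032 in edgeR) and TNFRSF11A (-0.57, adjusted p = 6e-05 in edgeR) were downregulated. The adaptor TRAF3 (0.32, adjusted p = 0.0013 in edgeR) was upregulated. CD40, TNFRSF11A and TRAF3 were named after their values were seen.

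Among kinases and ubiquitin factors 12 of 26 were upregulated and 9 downregulated (46.2 and 34.6%, against 30.0 and 31.4% of all tested genes), with a median of 0.09. By total count the balance was 9 upregulated and 12 downregulated, and in both limma fits 8 and 11. MAP3K14, which encodes NIK, had 5.33, 5.22 and 5.86 FPKM in NC and 7.92, 8.32 and 7.63 FPKM in siGDF15. Its log2 fold change was 0.64 (SE 0.072, adjusted p = 1.0e-04 in edgeR). BIRC3, a ubiquitin ligase that restrains NIK and is also an NF-κB target, had 1.22, and by the same rule MAP3K3 (-0.82) and IKBKE (-0.39) were the largest falls. The call of IKBKE was lost without siGDF15 replicate 1 (adjusted p = 0.053). CHUK, an IKK kinase named after its value was seen, was also downregulated (-0.28, adjusted p = 0.0044 in edgeR). Of 20 tested genes on the list of other inhibitors 9 were upregulated and 4 downregulated (45.0 and 20%, against 30.0 and 31.4% of all tested genes), with a median of 0.16. These counts were 7 and 5 by total count and in both limma fits, and 12 and 3 with equal medians. NKIRAS2, which protects IκB from degradation, had 1.24 and NFKBIZ, a nuclear IκB, had 1.17. SIGIRR, an inhibitory member of the IL-1 receptor family, had -1.81 and entered the test through its NC level (1.76 FPKM in NC, 0.461 FPKM in siGDF15). Its NC libraries had 2.25, 1.56 and 1.47 FPKM, and without NC replicate 1 it fell under the filter. PDLIM2, which promotes RelA turnover, had -0.92.

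The target genes had the highest median of the 4 lists. Of the 52 genes on the list 51 were in the table and 32 were tested, of which 22 were upregulated and 6 downregulated (68.8 and 18.8%, against 30.0 and 31.4% of all tested genes). Their median log2 fold change was 0.43. C3, the central complement component, had 10.6, 12.9 and 8.01 FPKM in NC and 76.7, 82.1 and 82.8 FPKM in siGDF15, a log2 fold change of 3.04 (SE 0.15, adjusted p = 1.5e-06 in edgeR). IL6 had 2.29, and as its NC mean was 0.510 FPKM it entered the test through its siGDF15 level. The falls were led by IL32 (-1.02) and by GADD45B (-0.88), a stress-response gene. The list was written from general knowledge of NF-κB targets with results on some of its genes known, and BIRC3 stands on this list and on that of the kinases.

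**Figure D4:**
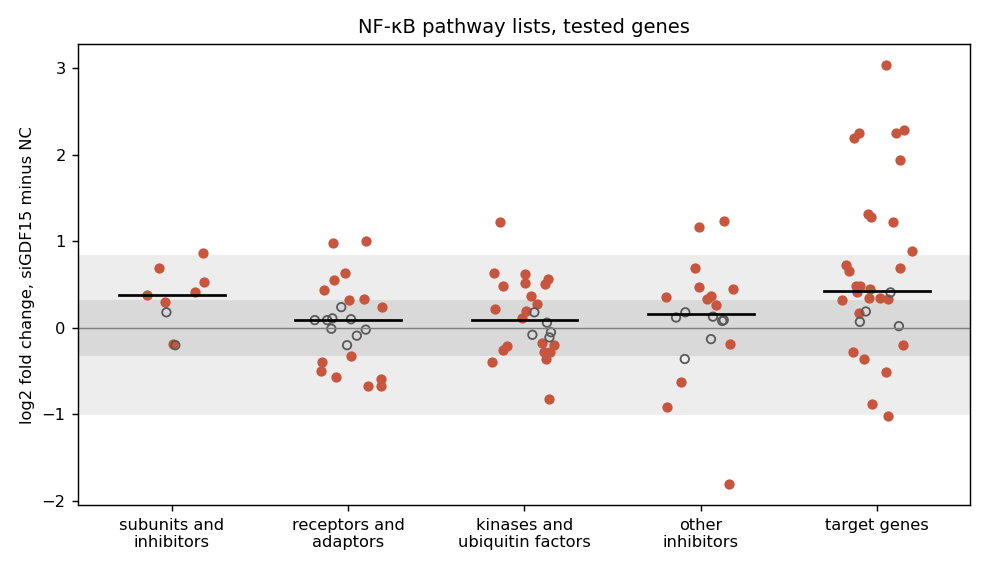
Log2 fold change (siGDF15 minus NC) of each tested gene in the 5 lists, filled where the adjusted p was under 0.05 and open otherwise, with black bars at list medians. Grey bands cover the 5th to 95th and the 25th to 75th percentiles of all tested genes (-0.99 to 0.83 and -0.31 to 0.31); the medians were 0.38, 0.09, 0.09, 0.16 and 0.43 from left to right, and 9 target genes lie at 1 or above.

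The κB consensus was then set against the changes. Among target genes with a promoter window 23 of 40 (57.5%) held the consensus, as did 7 of 21 other inhibitors (33.3%), 5 of 23 kinases and ubiquitin factors (21.7%), 3 of 24 receptors and adaptors (12.5%) and 13.3% of all genes. Within the genes described here the match did not go with 1 direction: NFKB2, NFKBIA and TNFAIP3 were upregulated, NFKB1 was downregulated, BCL3 and NFKBIB did not pass, and RELA, with no match in its windows, was upregulated. Across all other tested genes, 1544 had a window with the consensus, and 30.5% of these were upregulated and 34.2% downregulated. Of the 7272 without it, 30.3% were upregulated and 32.7% downregulated. For the stricter motif the counts were 24 upregulated and 21 downregulated of 68 (35.3 and 30.9%). Of the genes without it 30.3% were upregulated and 33.0% downregulated. The median log2 fold change was 0.08 with the stricter motif and -0.01 without it.

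The direction of each of the 9 tested genes was the same in all 17 fits, which differed in scaling, filter, tool or the library left out. NFKB2, RELA, RELB, NFKBIA and NFKBIE passed an adjusted p of 0.05 in each of them. Scaling by the total count moved the median of all tested genes by 0.102 on the log2 scale, from 0.003 to -0.099, and the upregulated share of all called genes from 48.9 to 36.6%. Relative to that median, RELB was at 0.86, NFKBIA at 0.69, NFKB2 at 0.53 and NFKB1 at -0.19 under total-count scaling.

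**Figure D5:**
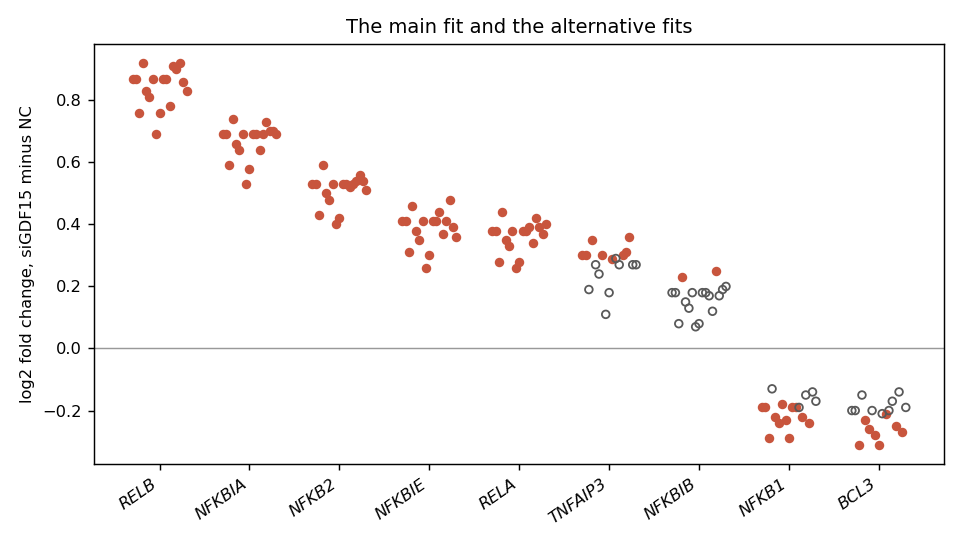
Log2 fold change of the 9 tested genes in the main fit and 16 alternative fits, 1 point per fit, filled where the adjusted p was under 0.05 and open otherwise. RELB, NFKBIA, NFKB2, NFKBIE and RELA are filled throughout, TNFAIP3, NFKBIB, NFKB1 and BCL3 mix filled and open points, and no gene crosses 0.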

How the data were processed

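Poly(A) RNA of 6 cultures labelled KHM-5M (3 NC, 3 siGDF15) was sequenced as read pairs of 150 bases. Per the labels, fastp, HISAT2, StringTie and edgeR were used on GRCh38; versions and annotation are not given in the sources used here. The authors deposited FPKM values and expected counts per gene. The expected counts are whole numbers derived from coverage, and 15.6% of values from 1 to 20 were exactly 4, so 1 read pair was taken as 4 counts.

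Expected counts were tested with edgeR 4.0.16 (TMM, quasi-likelihood, two-sided, no block) in R 4.3.3 on genes averaging 1 FPKM or more, with Benjamini-Hochberg adjustment. SEs of log2 fold changes came from the F statistics. Alternatives used limma 3.58.1 and DESeq2 1.42.0. The fits were tested on simulated data. Figures were drawn with matplotlib 3.10.9. In each list the 2 largest rises and 2 largest falls among called genes without overlap between groups were named. The members and lists were chosen with earlier results of these data known. Promoter sequences were taken from RefSeq (GRCh38.p14), matched by symbol. A thyroid marker is not reported here.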

Additional observations from a re-analysis of the deposited data

How the results depend on the processing

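GDF15, NFKB2, RELA, RELB, NFKBIA and NFKBIE kept their direction and their side of the threshold in all 16 alternative fits. NFKB1, NFKBIB, TNFAIP3 and BCL3 changed their side of the threshold in some fits. REL was tested only with the lower filter (adjusted p = 0.31 in edgeR) and with no filter (0.37), and passed in neither. The upregulated count of the 10 genes was 5 to 7 over all fits and 5 at an adjusted p under 0.01. The downregulated count was 2 with total-count scaling, a lower filter (mean 0.1 FPKM), no filter, DESeq2, limma with a pseudocount of 1 or 0.1 and the replicate block. It was 0 with equal medians or an adjusted p under 0.01, and 0 to 1 with 1 library left out. At that stricter threshold 5 receptors and adaptors and 16 KEGG pathway genes were upregulated. With 1 library left out, 2 to 5 other inhibitors were downregulated.

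TNFAIP3 lost its call with total-count scaling (0.19), that lower filter (0.27), no filter (0.24), limma with a pseudocount of 1 (0.11) or 0.1 (0.18) and the replicate block (0.29). BCL3 gained one in the same order (-0.31, -0.23, -0.26, -0.28, -0.31 and -0.21) and in DESeq2 (-0.20). With equal medians NFKB1 lost its call (-0.13) and NFKBIB gained one (0.23). With 1 library left out NFKB1 was -0.24 to -0.14, TNFAIP3 0.27 to 0.36, BCL3 -0.27 to -0.14 and NFKBIB 0.12 to 0.25. The cause was not tested.

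The labels give replicate numbers without saying that they mark shared cultures. Same-numbered libraries deviated from their group means with correlations of 0.0276, -0.0753 and 0.0458. With 3 libraries per group, these values cannot decide whether the numbers mark shared cultures. Apart from TNFAIP3 and BCL3, the block changed no call among the 10 genes. The ratio of inhibitor to subunit FPKM differed by -0.0230 (siGDF15 minus NC), by -0.0327 to -0.0162 with 1 library left out and by -0.0221 without NFKB2. Of the values for the genes named by the fixed rule, 318 kept their call and 1 did not, and SIGIRR had no value without NC replicate 1. CD40, TNFRSF11A, TRAF3 and CHUK, named after their values were seen, were not followed over the alternative fits.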
